A study of Mus musculus with 18 samples.

Results

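MYC and the genes that build ribosomes were measured in 3 states of mouse CD8+ T cells. The cells were wild type (WT) or labelled as a conditional knockout (cKO) of GRP75, the mitochondrial chaperone encoded by Hspa9. The gene module held 35 genes, taken by gene symbol: Myc, 32 ribosome biogenesis genes, and the polyamine enzymes Odc1 and Srm. All 35 were found in each of the 3 deposited tables, out of 27830 genes over the 3 tables, and all 35 had enough reads to be tested in every comparison. The source tissue was lymph nodes and spleen of untreated WT and cKO mice aged 8 weeks. Naive cells were used directly, and effector and memory cells were differentiated from naive cells in vitro. In cKO the sequenced naive cells differed in sex-linked genes from the effector and memory cells, as given below. Each combination of subset and genotype had 3 libraries of poly-A selected RNA, 18 in all. The labels do not name the Cre line or promoter, nor do they say whether the replicates of a group came from separate mice, so the p-values measure the spread between these libraries, which may be technical.

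MYC is a transcription factor that pairs with MAX and binds short DNA letters called E-boxes at many promoters. Among its best known targets are the genes for RNA polymerase I, for the small nucleolar ribonucleoproteins (snoRNPs) that modify ribosomal RNA, and for the factors that cut, fold and export the small and large ribosomal subunits. It also drives Odc1 (ornithine decarboxylase), the rate-limiting enzyme of polyamine synthesis. In T cells MYC rises on activation and is required for the growth that precedes division.

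The libraries held between 14771251 and 18049774 reads. Hspa9, the targeted gene, was higher in the libraries labelled cKO, at 6438 ± 284 normalised reads against 3992 ± 176 in WT naive cells (SD, n = 3). Its log2 fold change was 0.69 (naive), 0.16 (effector) and 0.48 (memory). Every direction given for the genotype therefore rests on the label, and cKO below stands for the libraries labelled cKO. In naive cells the genotypes also differed in sex-linked genes: Xist stood at 16393 ± 1514 normalised reads in WT and 4428 ± 279 in cKO, and Ddx3y at 0 in WT and 2907 ± 143 in cKO. The part of that difference in the naive results was not tested. The 8 CD8 T cell markers were abundant in all libraries, at 3919.7 to 6224 CPM (a gene's reads scaled to a common library total) summed over the list.

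Promoter sequences from RefSeq (build GRCm38.p6, from 250 bases before to 50 bases after each gene's start) were found for 28 of the 35 genes. Myc, Npm1, Fbl, Bop1, Rrp12, Rrs1 and Srm had no entry. The canonical E-box CACGTG stood in 6 of the 28 windows (21.4%) and in 7.15% of all 32851 windows of that length. Only the match of Nop2 lay before the start. Those of Pes1, Utp4, Wdr43, Utp20 and Mybbp1a lay 2 to 40 bases after it. The variant E-box CACGCG, searched on both strands as the other motif was, stood in 8 of 28 (28.6%) and in 9.27% of all windows. It lay before the start in Odc1, Nolc1, Pes1 and Mybbp1a and after it in Noc2l, Ddx21, Nhp2 and Nop16. These matches are letters only, with no measurement of binding. Of the genes whose RNA differed between genotypes or between genotype effects, 3 that hold a match before the start are printed. Pes1, which also differed, held the variant 247 bases before its start and the canonical one after it, and is not printed. Others that differed held neither motif in their windows (Gnl3, Nop58 and Rrp1b) or held only the canonical one after the start (Utp4). The 3 sequences are printed 5′ to 3′ in the direction of the gene. The motif is in capitals on whichever strand it was read (CGCGTG is CACGCG on the other strand).
Odc1 (chr12:17544623-17544793, plus strand, without the last 79 bases before the RefSeq start, which lie inside a longer annotated transcript): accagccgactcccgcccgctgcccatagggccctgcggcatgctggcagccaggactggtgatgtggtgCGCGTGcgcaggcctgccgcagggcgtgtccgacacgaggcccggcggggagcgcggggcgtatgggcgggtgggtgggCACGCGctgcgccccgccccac
Nop2 (chr6:125131633-125131882, plus strand, ending at the base before the start): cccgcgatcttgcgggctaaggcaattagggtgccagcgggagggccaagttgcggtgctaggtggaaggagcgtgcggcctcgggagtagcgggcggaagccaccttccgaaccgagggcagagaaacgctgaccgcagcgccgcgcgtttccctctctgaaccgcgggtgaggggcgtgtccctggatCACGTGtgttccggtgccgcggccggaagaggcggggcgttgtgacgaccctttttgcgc
Nolc1 (chr19:46075597-46075846, plus strand, ending at the base before the start): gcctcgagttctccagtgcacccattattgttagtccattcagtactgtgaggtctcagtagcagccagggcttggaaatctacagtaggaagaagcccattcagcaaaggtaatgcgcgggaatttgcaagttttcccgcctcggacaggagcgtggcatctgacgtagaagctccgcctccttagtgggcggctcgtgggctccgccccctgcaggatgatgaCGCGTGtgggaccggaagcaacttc
Odc1 held the variant E-box 180 and 101 bases before its start, Nop2 the canonical one 60 bases before, and Nolc1 the variant 25 bases before.

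Myc itself (GRCm39 chr15:61857240-61862223) was higher in the libraries labelled cKO in naive and memory cells. In naive cells the WT libraries held 2675, 3313 and 2657 normalised reads and the cKO libraries 4124, 3996 and 5059. Every cKO library lay above every WT library. The means were 2881 ± 374 and 4393 ± 580.5, a ratio of 1.52. On the log2 scale this was 0.61 (SE 0.10, limma adjusted p = 0.0015). In memory cells the WT libraries held 4551, 4894 and 4723 normalised reads against 6032, 5822 and 6664 in cKO, again without overlap. That difference was 0.38 on the log2 scale (SE 0.08, limma adjusted p = 0.0036), a ratio of means of 1.31. In effector cells, where Myc was lowest, the WT libraries held 945, 1079.5 and 959.5 normalised reads and the cKO libraries 1287, 1063 and 1094. There the groups overlapped, and the log2 fold change of 0.20 (SE 0.07) did not pass the test (limma adjusted p = 0.052). The effect in effector cells was smaller than in naive cells by the test of the difference, which was -0.40 (SE 0.13, limma adjusted p = 0.039). That call was lost, with adjusted p between 0.052 and 0.11, when WT replicate 1 or 3 or cKO replicate 3 of the naive cells, or WT replicate 2 or 3 or cKO replicate 2 or 3 of the effector cells, was left out. The naive and memory effects of Myc were not told apart, at a difference of -0.22 (limma adjusted p = 0.28).

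Odc1 (GRCm39 chr12:17594795-17601506) was higher in cKO in naive and effector cells. The naive WT libraries held 1085, 1079.9 and 1115 normalised reads and the cKO libraries 1686, 1709.9 and 1534. The WT libraries were close together and all cKO libraries lay above them. The log2 fold change came to 0.59 (SE 0.07), at a limma adjusted p of 9.8e-05. In effector cells 2825, 2678 and 2798 normalised reads in WT stood against 3861, 4118 and 4063 in cKO, which gave 0.54 (SE 0.04, limma adjusted p = 2.5e-08). In memory cells the values were 4039, 4449 and 4176 in WT and 4880.4, 4589 and 4681 in cKO. The memory groups did not overlap, but the log2 fold change of 0.16 (SE 0.07) did not pass the test (limma adjusted p = 0.14). The memory effect was smaller than the naive one by 0.42 on the log2 scale, written as a difference of -0.42 (SE 0.08, limma adjusted p = 8.2e-04), and smaller than the effector one, at -0.38 (SE 0.08, limma adjusted p = 0.0045). Srm, the spermidine synthase that acts after Odc1 in the same pathway, was not called in any subset. In memory cells its WT libraries held 605, 690.1 and 538 normalised reads and its cKO libraries 967, 699.6 and 724, with cKO replicate 1 far above the rest. That was 0.37 on the log2 scale (SE 0.13, limma adjusted p = 0.067). In effector cells Srm was at 0.31 (SE 0.11, limma adjusted p = 0.065), also without overlap.

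**Figure D1:**
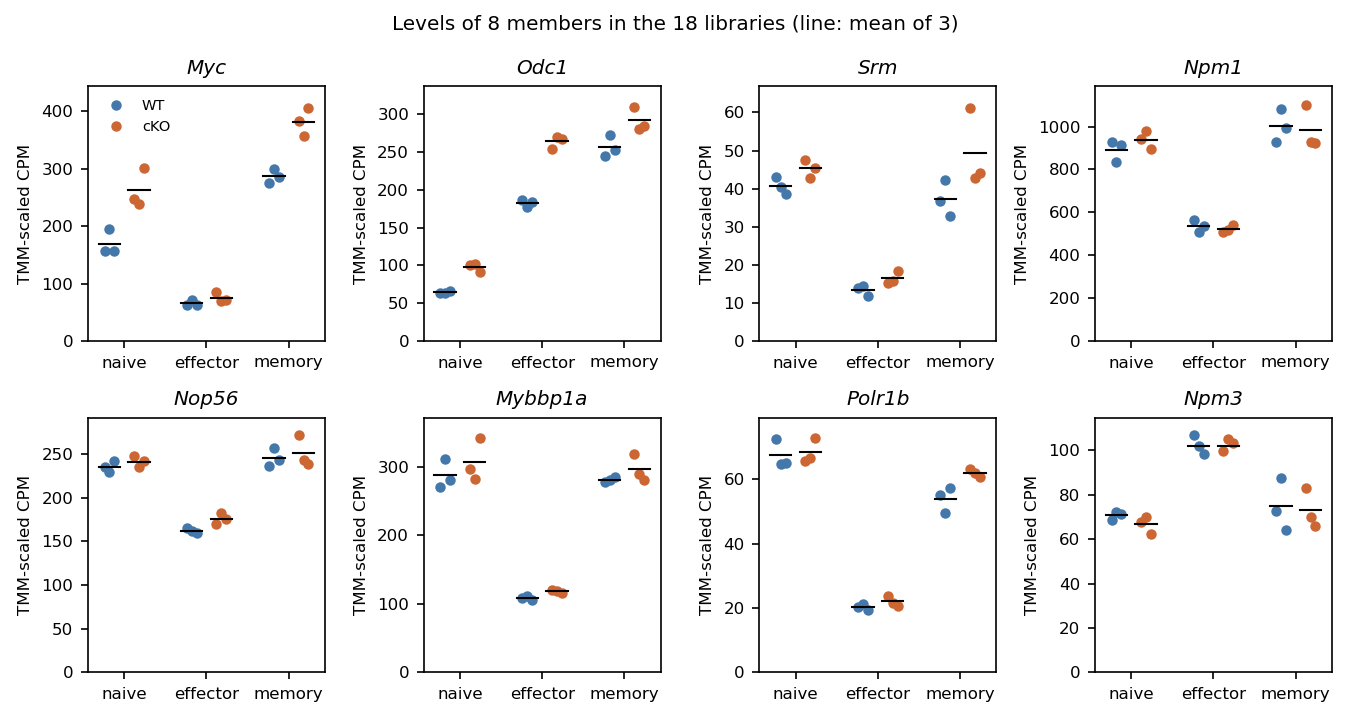
Level of 8 of the 35 genes in each library (points) with the mean of 3 (line), as CPM scaled together over the 18 libraries by the TMM method; axes start at 0. Myc was lowest in effector cells and highest in memory cells, at a mean of 65.5 and 287 CPM in WT, while Odc1 was lowest in naive cells at 64.3 CPM in WT.

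Of the 32 ribosome biogenesis genes, 0 were called higher in naive cells of the libraries labelled cKO, 3 were called lower and 29 were not called. The median log2 fold change over the 32 was -0.00, beside -0.01 over all 13885 genes tested. With Myc and Odc1 the module had 2 genes higher and 3 lower of 35, in a comparison in which 24.9% of all genes were called (12.9% higher and 11.9% lower). The 5 called genes are 14.3% of the module.

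The 3 genes called lower in naive cells act in processing and export. Nop2, which methylates the RNA of the large subunit, stood at 1387, 1477 and 1181 normalised reads in WT and 1060.3, 1047 and 1150.2 in cKO, or -0.31 on the log2 scale (SE 0.09, limma adjusted p = 0.026). WT replicate 3 lay just above the highest cKO library. Utp4, a subunit of the early small-subunit processome, went from 1145 ± 47.6 to 977 ± 36.6 normalised reads (-0.23, SE 0.07, adjusted p = 0.034). Rrp12, a factor of ribosomal subunit maturation and export, went from 1095 ± 18.7 to 949.7 ± 28.2 (-0.21, SE 0.07, adjusted p = 0.043). Scaled to library totals instead of the deposited size factors these differences came to -0.19 (adjusted p = 0.14), -0.11 (0.27) and -0.09 (0.37), in that order. Nop2 and Utp4 also lost the call without WT replicate 1 or 2 or cKO replicate 1 or 2, at adjusted p between 0.056 and 0.14, and Rrp12 lost it without any 1 of the 6 libraries, at 0.077 to 0.12. Under library totals the median of all genes moved from -0.01 to 0.11, and the module had 9 genes higher and 0 lower. The share of all genes called under that scaling is not given here, so these counts are not read as a result about the module.

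The other naive roles held no call. Of the snoRNP genes, Nop58 (a core protein of the box C/D particles) had the highest value, from 2403 ± 138 in WT to 2737 ± 161 in cKO normalised reads (0.19, SE 0.07, limma adjusted p = 0.071), and Nhp2 (a core protein of the box H/ACA particles) the lowest, from 615 ± 50.4 to 504 ± 57.6 (-0.29, SE 0.10, adjusted p = 0.063). Both pairs of groups stood apart without overlap. The nucleolar chaperones Ncl, Npm1 and Npm3 lay between -0.11 and 0.13. The large subunits of RNA polymerase I, Polr1a and Polr1b, were at 0.11 and -0.00. In the naive comparison 6 of 35 genes had all cKO libraries above all WT libraries and 5 had all below, beside 20.3% and 19.6% of all genes tested.

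In effector cells 3 of the 32 ribosome biogenesis genes were called higher in cKO and 0 lower. With Odc1 this made 4 of 35, or 11.4% of the module, in a comparison in which 20.1% of all genes were called with 10.7% called higher and 9.37% lower. Gnl3, the nucleolar GTPase nucleostemin, held 879, 907 and 907 normalised reads in WT and 1058, 1037 and 1125 in cKO. The groups stood well apart, by 0.26 on the log2 scale (SE 0.06, limma adjusted p = 0.0026). Pes1, a subunit of the PeBoW complex of large-subunit assembly, went from 998 ± 21.4 to 1134 ± 88.7 (0.18, SE 0.06, adjusted p = 0.041), while its partners Bop1 and Wdr12 were not called, at 0.11 and -0.06. Rrp1b, a nucleolar factor of the large subunit, went from 621 ± 22.6 to 708 ± 29.0 (0.19, SE 0.06, adjusted p = 0.048). The Pes1 call was lost without WT replicate 1, 2 or 3 or cKO replicate 2 or 3, at adjusted p between 0.065 and 0.20. The Rrp1b call was lost without WT replicate 1 or 3 or cKO replicate 1 or 2, at 0.12 to 0.15. The median over the 35 genes was 0.06 and over all 13815 genes tested -0.01. The genotypes did not overlap for 9 genes of the module, with cKO above in 8 and below in 1, beside 17.9% and 17.5% of all genes tested.

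No other effector gene of the module was called. The 3 nucleolar chaperones lay between -0.03 and 0.01, and the 8 small-subunit genes between -0.13 and 0.09 with a median of -0.02. Polr1a held 531, 638 and 572 normalised reads in WT and 638, 702 and 637 in cKO, where the groups overlapped (0.19, SE 0.08, limma adjusted p = 0.095). Among box C/D genes Nop56 was at 0.12 (SE 0.04, adjusted p = 0.057) with every cKO library higher, and Nop58 at -0.09 (SE 0.05, adjusted p = 0.17) with every cKO library lower. The 11 large-subunit genes, which include the 3 ribosome biogenesis genes called higher, had a median of 0.11. Mybbp1a, at 0.12 (SE 0.05, adjusted p = 0.080), and Noc2l, at 0.11 (SE 0.05, adjusted p = 0.13), stood without overlap and were not called.

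In memory cells Myc was the only gene of the 35 to be called (2.86% of the module, beside 19.1% of all genes called, 12.1% higher and 7.00% lower). None of the 32 ribosome biogenesis genes was called in limma at an adjusted p under 0.05. Of these, 7 had an unadjusted limma p under 0.05. That cut is looser than the adjusted one, so the 19.1% of all genes called is not the share to set beside these 7. With edgeR and with DESeq2 on the recovered reads the module also had 1 gene higher and 0 lower. Nearest to the threshold was Rrp1b, from 956 ± 14.4 to 1116 ± 45.2 normalised reads (0.22, SE 0.07, limma adjusted p = 0.052). Noc4l, a factor of the small subunit, was at 0.28 (adjusted p = 0.077) and Nolc1, a chaperone of snoRNPs, at 0.23 (adjusted p = 0.063). All 3 had every cKO library above every WT library, as had 10 of the 35 genes, with 3 the other way, beside 19.4% and 16.8% of all genes tested. By role, the median was -0.05 for the chaperones, 0.01 for box C/D genes, 0.07 for box H/ACA genes, 0.09 for RNA polymerase I, -0.02 for the small subunit and 0.06 for the large subunit. Ddx21, Utp4 and Wdr43 had every cKO library below every WT library, at -0.09, -0.16 and -0.12, and were not called. Nhp2 spread widely in cKO memory cells, at 759, 559 and 441 normalised reads, over a range that held all but 1 of the WT libraries (632, 784 and 707). Memory calls depended on the scaling, since 9 of 35 genes were called higher and 0 lower when scaled to library totals. The median of all genes was then at 0.05 in place of -0.02. The share of all genes called under that scaling is not given here, so the 9 are not read as a result about the module. Without WT replicate 2 of the memory cells 4 genes were called higher, without cKO replicate 1 it was 2 higher and 1 lower, and without cKO replicate 2 it was 3 higher.

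**Figure D2:**
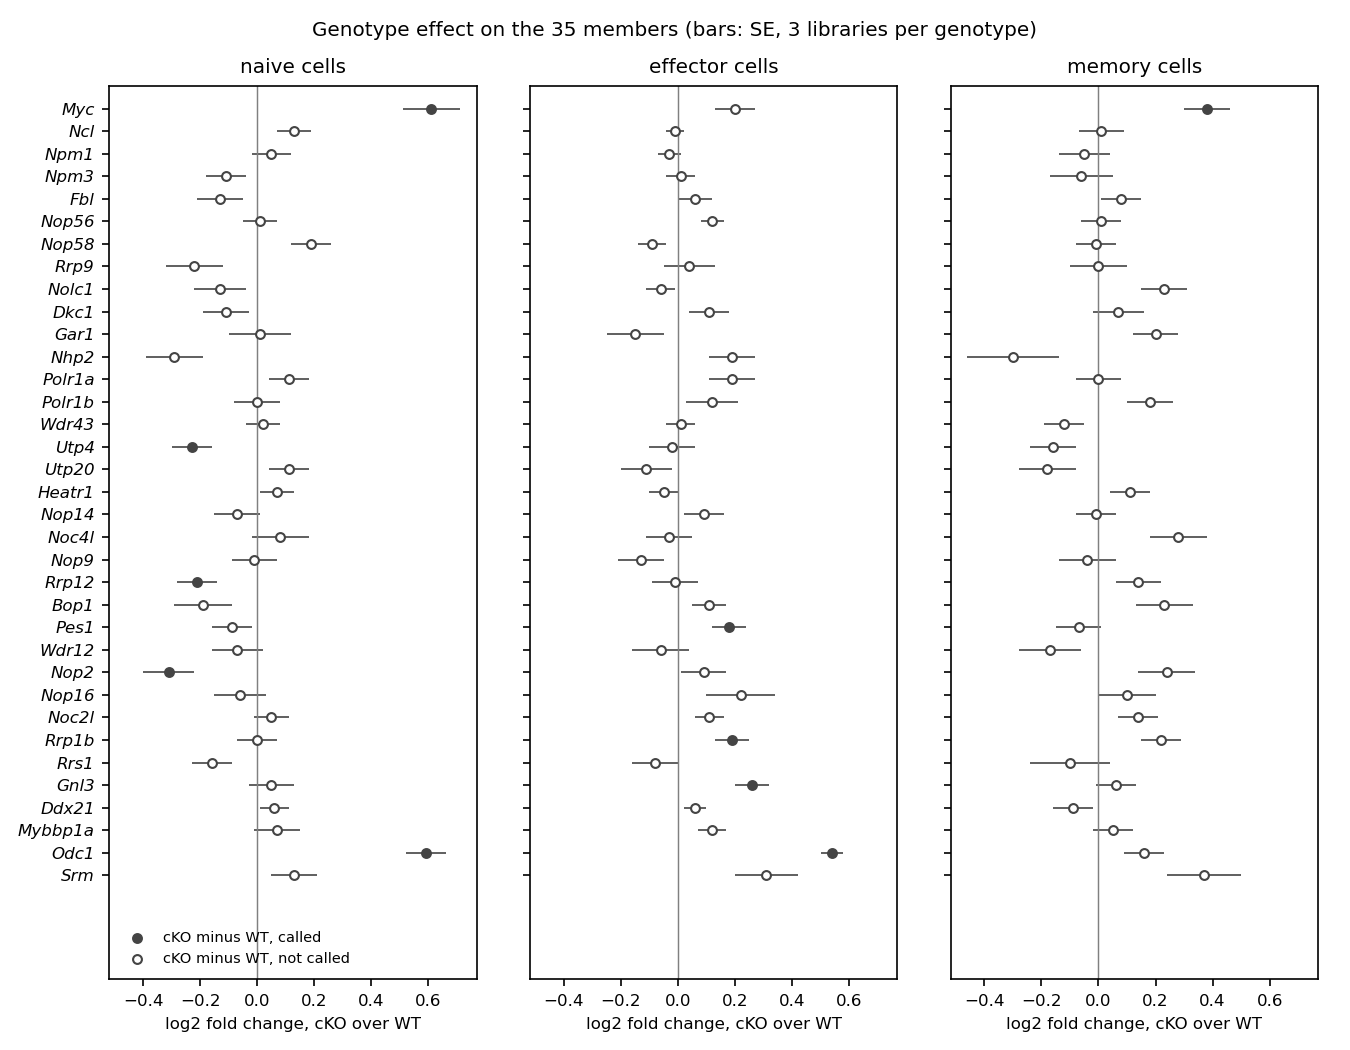
Log2 fold change of cKO over WT for each of the 35 genes (rows) in naive, effector and memory cells, with bars of 1 SE over 3 libraries per genotype; filled points were called at an adjusted p under 0.05. Myc and Odc1 stand right of the other genes in naive cells, at 0.61 and 0.59, and most other points lie within 0.3 of 0.

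The share of all reads taken by the 32 ribosome biogenesis genes summed them on 1 scale that uses library totals. In naive cells it was 0.508% ± 0.00719 in WT and 0.561% ± 0.00390 in cKO (SD, n = 3). In memory cells it was 0.515% ± 0.0142 and 0.546% ± 0.0184, and in effector cells 0.321% ± 0.00340 and 0.325% ± 0.00862. The naive groups and the memory groups did not overlap, and the effector groups did. On library totals the median log2 fold change of all genes was itself 0.11 in naive and 0.05 in memory cells. The median of the module was 0.12 in both, so these shares include a shift of all genes. With 3 libraries against 3 an exact permutation test cannot give a p below 0.1. The 110 other ribosome biogenesis genes tested took 0.869% ± 0.00938 in WT and 0.895% ± 0.00945 in cKO naive cells. On the deposited normalisation more of these genes were called lower than higher in naive cells, as given below. In bulk RNA a change in the number of cells of a kind and a change in the RNA of each cell cannot be told apart.

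**Figure D3:**
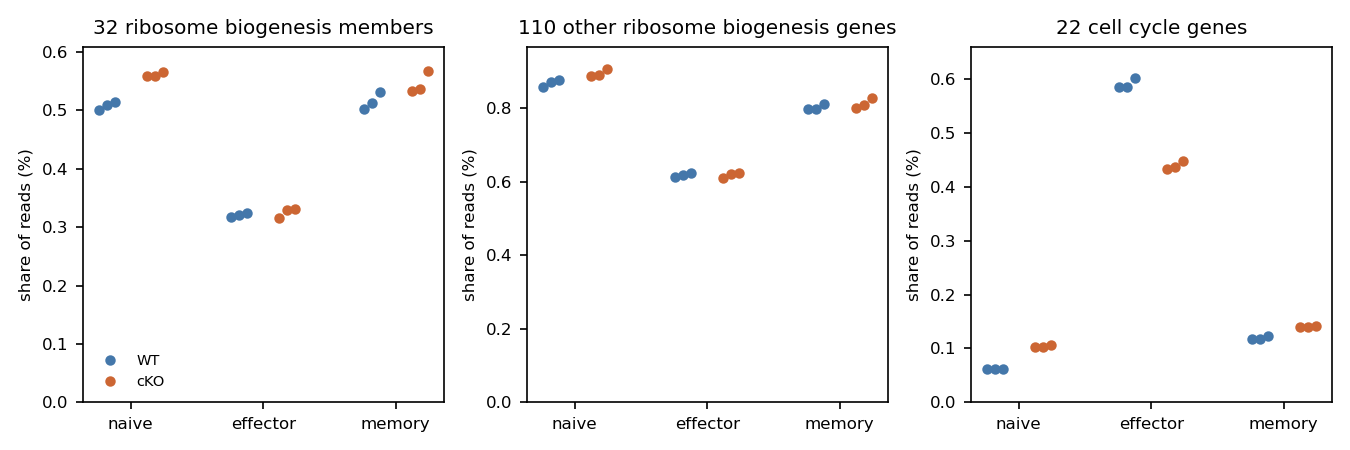
Share of each library's reads (percent, library totals, axes from 0) taken by the 32 ribosome biogenesis genes of the module, by 110 other ribosome biogenesis genes, and by 22 cell cycle genes; points are the 3 libraries of a group in order of value. The ribosome biogenesis share was lowest in effector cells, at 0.321% in WT, where the cell cycle share was highest, at 0.590%.

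Values of other gene lists moved with the genotype, and their part in the results above was not tested. Of 22 cell cycle genes, 17 were higher in cKO naive cells (summed level 618 CPM in WT and 1038 in cKO), 22 were lower in cKO effector cells (5898 and 4383) and 7 were higher in cKO memory cells (1198 and 1411). Gamma-delta T cell markers rose in each subset for all 3 genes tested of the 5 listed. A gene enters the test with 10 or more normalised reads in at least 3 libraries, which the cKO libraries alone can meet. Summed over the 5, levels were 8.86 to 10.9 CPM in WT and 44.8 to 52.2 in cKO naive cells. They were 8.04 to 9.24 and 54.8 to 58.5 in effector cells, and 13.8 to 15.2 and 93.1 to 121 in memory cells. Myeloid markers were higher for 9 of 10 genes in memory cells (18.2 to 22.2 CPM in WT, 232 to 321 in cKO) and for 7 of 10, with 1 lower, in effector cells (89.2 to 98.3 and 113 to 126), while in naive cells they summed to at most 2.99 CPM, with C1qa at 0 in both genotypes. Erythroid markers were higher for 5 of 5 genes in effector cells (11.3 to 13.4 CPM in WT, 85.4 to 90.9 in cKO) and 3 of 5 in memory cells (17.8 to 27.1 and 46.3 to 63.4). B cell markers were higher for 6 of 8 genes in memory cells (124 to 132 CPM in WT, 234 to 255 in cKO), CD4 T cell markers for 3 of 4 in naive cells (4.52 to 5.87 and 14.1 to 17.2), and NK cell markers for 3 of 4 in memory cells (4.66 to 6.57 and 19.3 to 25.3) and, with 1 lower, in effector cells (38.4 to 42.3 and 44.2 to 47.5). CD4 T cell markers were also higher for 2 of 4 genes in memory cells (15.2 to 18.3 CPM in WT, 32.8 to 35.6 in cKO). In naive cells 3 of the 5 B cell markers tested were higher and 1 lower, with a summed level of 22.2 to 22.9 CPM in WT and 18.4 to 21.3 in cKO. Without any read in the naive libraries of a genotype were Fcmr, Klra8, Ncr1 and C1qb in WT, Hba-a2 and Hbb-bt in cKO, and Klra4 in both. CD8 T cell markers were lower for 7 of 8 genes in naive cells (5448 to 5617 CPM in WT, 4721 to 4839.9 in cKO), for 2 of 8, with 1 higher, in effector cells (6112 to 6224 and 5440.2 to 5664) and for 3 of 8 in memory cells (4787 to 5207 and 3919.7 to 4522).

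Most of the module was lower in effector than in naive cells in both genotypes. Naive cells were used directly, while effector and memory cells were differentiated in vitro. Subset and culture therefore cannot be told apart in any comparison with naive cells. The 3 deposited tables were normalised separately, so subsets were set side by side on the recovered reads, scaled together. In WT cells 29 of the 35 genes were lower in effector than in naive cells, 4 were higher and 2 were not called, by edgeR's quasi-likelihood test. Of all 15659 genes tested 67.0% were called, 33.1% lower and 33.9% higher, and 82.9% of the module was called lower. The median over the module was -0.87, beside -0.01 over all genes. The sex-linked difference also lies between the cKO subsets, and its part in their comparisons was not tested: on the separately normalised tables Xist stood at 4428 ± 279 normalised reads in cKO naive, 12579 ± 239.5 in cKO effector and 14267 ± 3662 in cKO memory cells, and Ddx3y is listed in the naive table alone. In the libraries labelled cKO 30 genes were lower, 4 higher and 1 was not called, with a median of -0.81, where 68.4% of all genes were called (33.8% higher and 34.6% lower). The cKO and WT comparisons share no library, but both come from 1 fit of all 18 libraries with 1 scaling and 1 estimate of the spread. Of the 29 genes lower in WT, 28 were also lower in cKO, and the same 4 genes were higher in both. The cKO call of Nop9 was lost under library totals (adjusted p = 0.37) and without effector cKO replicate 2 (adjusted p = 0.052), that of Ncl without naive cKO replicate 1 or 2 or effector cKO replicate 1, that of Noc4l without naive cKO replicate 3 or effector cKO replicate 1 or 3, and that of Pes1 without naive cKO replicate 1 or 2 or effector cKO replicate 1, at adjusted p up to 0.20.

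Polr1b had the lowest log2 fold change of the module from naive to effector WT cells. It went from 72.7, 64.7 and 65.1 CPM in WT naive libraries to 20.2, 21.3 and 19.4 in WT effector libraries, or -1.73 (SE 0.08, edgeR adjusted p = 1.3e-15). Polr1a fell by 1.25 on the log2 scale (SE 0.08). Myc went from 157, 195 and 156 CPM to 62.2, 71.2 and 63.2, or -1.37 (SE 0.10, edgeR adjusted p = 4.7e-12), and no library of either group came near the other. In cKO the fall of Myc was -1.80 (SE 0.10), from a higher naive level. Srm (-1.61, SE 0.13), Utp20, a scaffold of the small-subunit processome (-1.51, SE 0.09), Mybbp1a, a nucleolar MYB-binding protein (-1.40, SE 0.07), Nop2 (-1.37, SE 0.10) and Gnl3 (-1.33, SE 0.07) were also lower in WT.

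Genes of the rRNA-modifying particles fell by different amounts. Of the box C/D genes, Rrp9, the protein specific to the U3 particle, fell by 1.19 on the log2 scale, the methyltransferase Fbl by 0.83, and the core proteins Nop56 and Nop58 by 0.54 and 0.37. Of the box H/ACA genes, the pseudouridine synthase Dkc1 fell by 0.88 and Gar1 by 0.60, while Nhp2 was higher at 0.33 (SE 0.14, edgeR adjusted p = 0.044) in WT and 0.79 (SE 0.14, adjusted p = 3.1e-05) in cKO. The WT call of Nhp2 was lost without naive WT replicate 2 or effector WT replicate 1, 2 or 3, at adjusted p between 0.061 and 0.14, and under library totals. The chaperone Npm1 went from 893 to 534 CPM (-0.74, SE 0.07), the chaperone Npm3 went the other way from 70.8 to 102 (0.53, SE 0.09, edgeR adjusted p = 1.4e-05), and nucleolin (Ncl) was not called in WT at 881 and 865 CPM. Nop9, a small-subunit factor, was also higher in effector cells (0.42, SE 0.09, adjusted p = 3.0e-04).

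Odc1 had the largest rise of the 4 genes that were higher in WT effector than in WT naive cells. It went from 63.8, 63.6 and 65.6 CPM in WT naive libraries to 186, 177 and 184 in WT effector libraries (1.50, SE 0.06, edgeR adjusted p = 1.3e-16) and to 245, 273 and 253 in WT memory libraries. Memory against naive was 2.00 (SE 0.06, adjusted p = 2.2e-18). In cKO the mean levels of naive, effector and memory cells were 98.3, 264 and 292 CPM. The polyamine enzymes of the module thus went opposite ways in effector cells, with Odc1 higher and Srm lower.

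**Figure D4:**
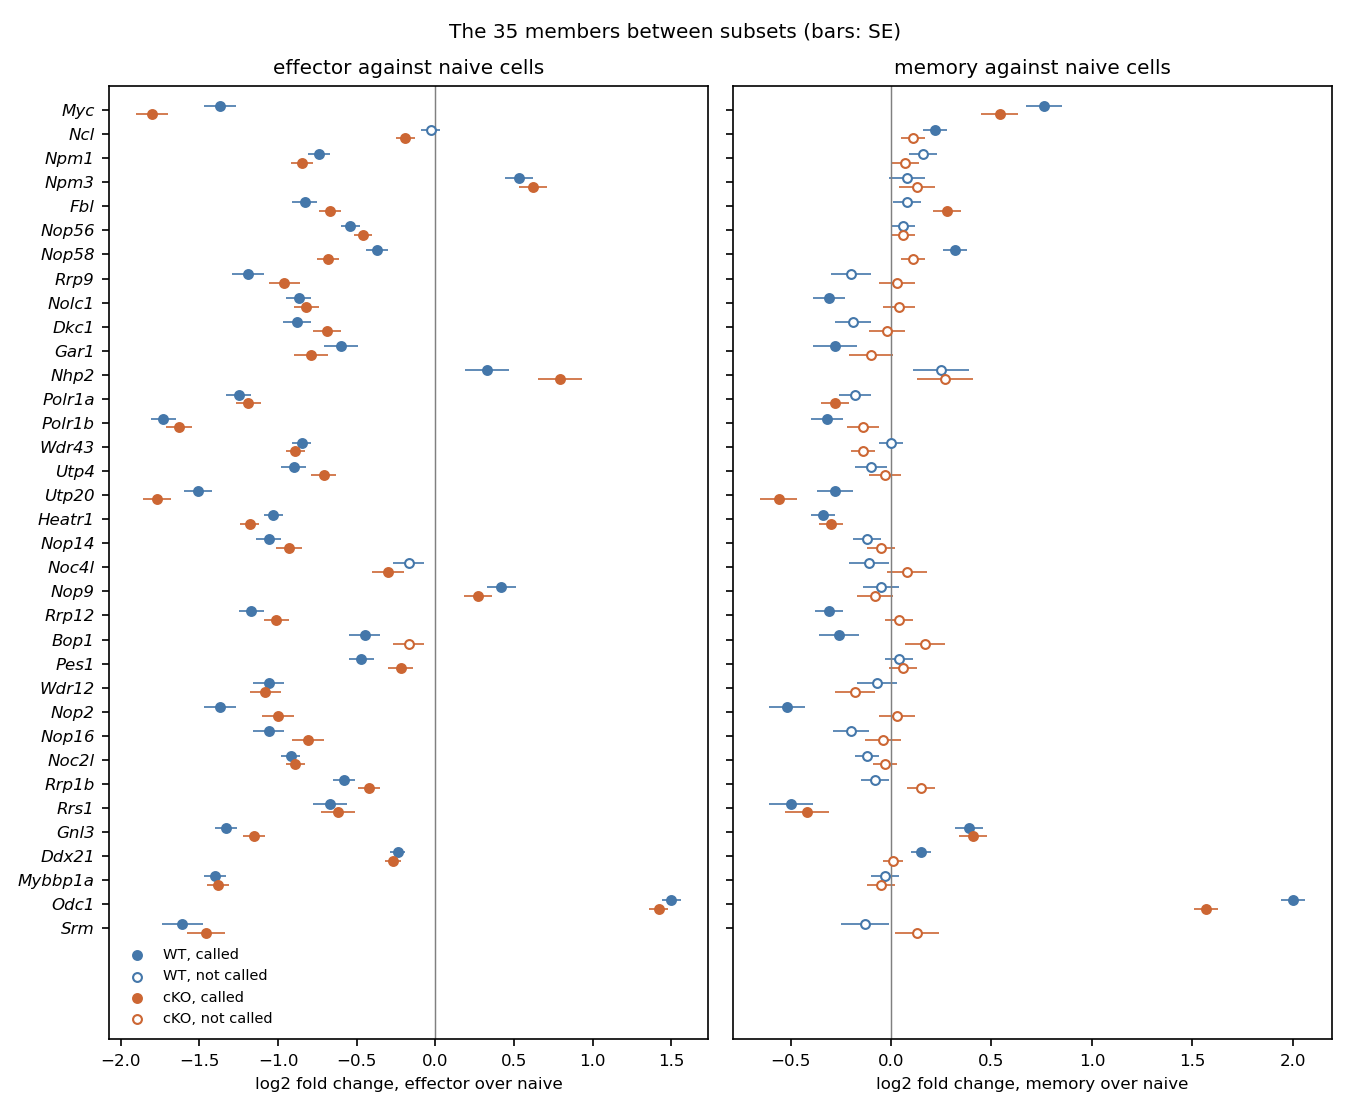
Log2 fold change of each of the 35 genes (rows) in effector over naive and in memory over naive cells, for WT and cKO, with bars of 1 SE; filled points were called at an adjusted p under 0.05. Most genes lie left of 0 in effector cells (medians -0.87 and -0.81) and near 0 in memory cells (medians -0.10 and 0.03), with Odc1 far to the right in both.

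From naive to memory WT cells, 6 genes of the module were higher, 9 lower and 20 not called, with a median of -0.10, where 37.1% of all genes were called (19.9% higher and 17.1% lower); this comparison shares its naive libraries with the one above. Myc was higher in memory cells at 276, 299.9 and 286 CPM against 157, 195 and 156 in naive cells (0.76, SE 0.09, edgeR adjusted p = 3.8e-07). Gnl3 (0.39), Nop58 (0.32), Ncl (0.22) and the RNA helicase Ddx21 (0.15) were the other ribosome biogenesis genes called higher. Lower were Nop2 (-0.52, SE 0.09), the 5S-particle factor Rrs1 (-0.50, SE 0.11), Heatr1 (-0.34), Polr1b (-0.32), Nolc1 (-0.31), Rrp12 (-0.31), Utp20 (-0.28), Gar1 (-0.28) and Bop1 (-0.26). The calls of Gar1 (without naive WT replicate 1 or 3 or memory WT replicate 1, 2 or 3), Bop1 (without naive WT replicate 2 or memory WT replicate 1, 2 or 3), Utp20 (without naive WT replicate 1 or 3 or memory WT replicate 2) and Nolc1 (without naive WT replicate 2) were lost at adjusted p between 0.052 and 0.43, and that of Ddx21 under library totals (adjusted p = 0.063). In cKO, 4 genes were higher (Odc1, Myc at 0.54, Gnl3 at 0.41 and Fbl at 0.28) and 4 lower (Utp20 at -0.56, Rrs1 at -0.42, Heatr1 at -0.30 and Polr1a at -0.28, the last not called without naive cKO replicate 3, at an adjusted p of 0.093), or 22.9% of the module, beside 42.4% of all genes called (21.7% higher and 20.6% lower). Without naive cKO replicate 3 the cKO comparison called 7 genes higher. Nop2 was at 0.03 (adjusted p = 0.80) in cKO.

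From effector to memory cells 29 genes were higher in WT and 31 in cKO, 29 of them the same, beside 61.2% and 58.5% of all genes called (30.7% higher and 30.6% lower in WT, 29.9% and 28.6% in cKO). Myc was the furthest up, at 2.13 (SE 0.10) in WT and 2.34 (SE 0.10) in cKO, followed in WT by Gnl3 at 1.72 (SE 0.07). Npm3 and Nop9 were the 2 genes lower in WT, at -0.45 and -0.47. The cKO call of Odc1 (0.15, adjusted p = 0.039) was lost without effector cKO replicate 1, 2 or 3 or memory cKO replicate 1, without a filter and with the replicate block, at adjusted p between 0.050 and 0.22. The WT call of Gar1 was lost without effector WT replicate 3 (0.092) or memory WT replicate 2 (0.069). These comparisons share their libraries with those against naive cells.

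The genotype effect on 5 genes differed between memory and naive cells, 14.3% of the module beside 16.9% of all 15694 genes tested (7.89% higher and 9.00% lower). For Odc1 the difference was -0.42, as given above. For Nop2, whose naive effect was -0.31 and memory effect 0.24 (not called), the difference was 0.54 (SE 0.13, limma adjusted p = 0.0060). In memory cells Nop2 held 844, 1023 and 867 normalised reads in WT and 1184, 987 and 1050.2 in cKO, so that the order of the genotype means was the reverse of the naive one. Bop1 (0.42, adjusted p = 0.034), Nolc1 (0.36, adjusted p = 0.030) and Rrp12 (0.35, adjusted p = 0.025) also had a higher effect in memory than in naive cells. The calls of these 3 were lost when single libraries were left out, at adjusted p between 0.050 and 0.11: Rrp12 without WT replicate 1 or cKO replicate 3 of the memory cells, Nolc1 without these or naive WT replicate 2, naive cKO replicate 1 or 2 or memory WT replicate 3, and Bop1 without any of those or memory cKO replicate 1. Between effector and naive cells 3 genes were called, 8.57% of the module beside 18.5% of all genes (8.81% higher and 9.69% lower): Myc (-0.40), Nop58 (-0.28, SE 0.09, adjusted p = 0.028) and Nop2 (0.39, SE 0.13, adjusted p = 0.039). Nop58 lost its call without naive WT replicate 2, naive cKO replicate 1 or 2, effector WT replicate 1 or 3 or effector cKO replicate 1, at 0.054 to 0.084. Nop2 lost it without naive WT replicate 1 or 2, naive cKO replicate 1 or 2, effector WT replicate 1 or 3 or effector cKO replicate 2 or 3, at 0.066 to 0.10. Between memory and effector cells Odc1 was the 1 gene called, beside 8.71% of all genes (4.75% higher and 3.96% lower). The naive libraries enter both comparisons against naive cells.

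Levels of different genes were compared per kilobase of gene model. In WT naive cells Npm1 was the most abundant at 335 CPM per kilobase, followed by Ncl at 86.5, Ddx21 at 71.4 and Myc at 62.4, and Wdr12 was the least abundant at 2.95. The counting's strand setting is not given in the sources used here, and 8 genes of the module overlap a protein-coding gene on the opposite strand that had 100 or more reads (Nop56, Rrp9, Dkc1, Nhp2, Heatr1, Bop1, Wdr12 and Gnl3, the last beside Pbrm1), so their values are uncertain to that extent.

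Among the partners and antagonists of MYC, Mxd1, which competes with MYC for MAX and represses E-box genes, was higher in all cKO libraries of all 3 subsets. In naive cells it held 363, 308 and 363 normalised reads in WT and 748, 662 and 696 in cKO (1.03, SE 0.10, limma adjusted p = 1.8e-05). In effector cells it went from 1324 ± 24.8 to 2540.1 ± 54.8 (0.94, SE 0.04, adjusted p = 2.3e-11), and in memory cells from 1241, 1226 and 1229.8 to 2399.8, 2410.1 and 2491 (0.98, SE 0.07, adjusted p = 8.4e-07). The ratios of means were 2.04, 1.92 and 1.97. Mxd4, of the same family, was higher in effector cells, from 1923 ± 112 to 2625 ± 61.0 (0.45, SE 0.05, adjusted p = 1.7e-06) and in memory cells (0.38, adjusted p = 0.0053), and not called in naive cells at 0.01. Mxd3 was higher in naive cells, from 11.2 to 52.0 normalised reads (2.11, SE 0.28), and lower in effector cells (-0.41, SE 0.10). Mycl, a relative of Myc, rose from few reads, 20.7 ± 7.76 in WT to 195 ± 10.6 in cKO memory libraries (3.23, SE 0.25, adjusted p = 2.6e-06), and from 6.87 ± 5.96 to 52.0 ± 10.4 in effector cells, where the myeloid markers were higher too. The MYC network list as a whole had 3 genes higher and 2 lower of 14 tested in naive cells, 8 and 2 of 15 in effector cells, and 3 and 0 of 15 in memory cells, beside 24.9%, 20.1% and 19.1% of all genes called in either direction.

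**Figure D5:**
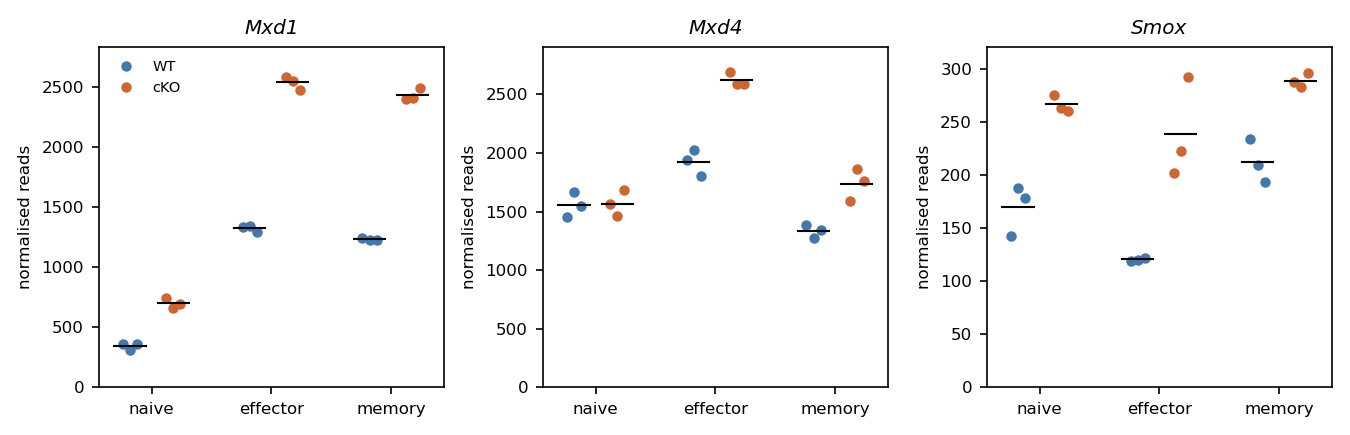
Normalised reads of Mxd1 and Mxd4, which compete with MYC for MAX, and of Smox, the spermine oxidase, in each library (points) with the mean of 3 (line), axes from 0; the tables were normalised separately, so genotypes compare within a subset only. Mxd1 stands apart between genotypes in all 3 subsets, with ratios of means of 2.04, 1.92 and 1.97.

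Of the 110 other ribosome biogenesis genes tested, 4 were higher and 15 lower in naive cells (median -0.07), where 12.9% and 11.9% of all genes were called higher and lower. In effector cells the counts were 4 and 3 (median 0.01, beside 10.7% and 9.37% of all genes), and in memory cells 2 and 5 (median -0.03, beside 12.1% and 7.00%). In naive cells Emg1, which methylates the RNA of the small subunit, fell from 2934, 2835 and 2873 normalised reads in WT to 2201, 2128 and 2000.3 in cKO (-0.45, SE 0.06, limma adjusted p = 3.1e-04), and the helicase Ddx55 from 916 ± 21.6 to 675 ± 14.3 (-0.44, SE 0.07, adjusted p = 9.3e-04). Mdn1, the large ATPase of large-subunit maturation, rose (0.37, SE 0.07, adjusted p = 0.0018). Nop10 (-0.49), Utp3 (-0.31) and Polr1d (-0.30) were called lower in naive cells. Of these, Nop10 lost the call without WT replicate 1 or 3 and Polr1d without WT replicate 1 or 3 or cKO replicate 2, and Utp3 and Polr1d lost it under library totals, with adjusted p over all alternatives up to 0.061 for Nop10, 0.11 for Polr1d and 0.055 for Utp3.

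In effector cells the called genes included Taf1a, a subunit of the polymerase I selectivity factor (0.53, SE 0.12, adjusted p = 0.0039), the kinase Riok1 (0.24, SE 0.05), the ATPase Nvl (-0.25, SE 0.05, and 0.34, SE 0.06, in naive cells), the RNA acetyltransferase Nat10 (0.23, SE 0.06), the snoRNP assembly factor Znhit3 (-0.47, SE 0.14) and the helicase Ddx24 (-0.21, SE 0.06). In memory cells Rpf1 (-0.35), Nsa2 (-0.38), Tsr1 (-0.32), Imp4 (-0.29) and Taf1b (-0.30) were called lower. Calls lost when 1 library was left out were those of Nat10 (effector WT replicate 1, cKO replicate 3), Znhit3 (WT replicate 2 or 3, cKO replicate 2), Ddx24 (WT replicate 2, cKO replicate 3), Nsa2 (memory WT replicate 2 or 3, cKO replicate 3), Tsr1 (WT replicate 1 or 3), Imp4 (WT replicate 1, 2 or 3, cKO replicate 3) and Taf1b (WT replicate 2 or 3, cKO replicate 3), with adjusted p over all alternatives up to 0.14. From naive to effector WT cells, 71 of the 110 genes were lower and 10 higher, with a median of -0.38, beside 33.1% of all genes called lower and 33.9% higher.

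Some genes of polyamine turnover were called beside Odc1. Smox, which oxidises spermine, was higher in cKO in all 3 subsets. It held 119, 120.4 and 122 normalised reads in WT and 202, 223 and 293 in cKO effector libraries (0.97, SE 0.14, limma adjusted p = 4.4e-05), with 0.66 (SE 0.13, adjusted p = 0.0033) in naive and 0.45 (SE 0.11, adjusted p = 0.016) in memory cells. The memory call was lost without memory WT replicate 3 or cKO replicate 3, at adjusted p up to 0.082. In naive cells Oaz1, the antizyme that sends ornithine decarboxylase for degradation, was lower, from 6721 ± 145 to 5126 ± 187 (-0.39, SE 0.06, adjusted p = 5.2e-04), and Paox, an acetylpolyamine oxidase, was higher (0.55, SE 0.11, adjusted p = 0.0029). Sms, the spermine synthase, was lower in effector cells (-0.19, SE 0.05, adjusted p = 0.0097), a call lost without effector WT replicate 1 and when all 18 libraries shared 1 fit (adjusted p up to 0.071). In all, naive cells had 3 of the list's 8 genes higher and 1 lower, effector cells 2 and 2, and memory cells 1 and 0. Of all genes tested, 24.9%, 20.1% and 19.1% were called in either direction in these subsets.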

How the data were processed

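Poly-A RNA of 18 libraries (6 groups of 3) was used. The authors deposited 1 table per subset holding, per gene and library, a signal value, with their log2 fold change and p-value of WT over cKO. Per the submitters' processing notes the build was GRCm39, and the tools were DESeq2 1.42.0, featureCounts 2.0.6, HISAT2 2.2.1 and fastp. Their order, settings and annotation are not given in the sources used here. Dividing each signal by its library's smallest step gave whole reads for 100% of the values, within 1e-05 of a read. The signal values are called normalised reads. Genotype effects and their differences between subsets were tested with limma 3.58.1 (R 4.3.3, intensity trend) on log2(normalised reads + 1), for genes with 10 or more normalised reads in at least 3 libraries. Fold changes are on that scale. Subsets were compared on recovered reads with edgeR 4.0.16 (quasi-likelihood, TMM, filterByExpr). P-values were adjusted over all genes tested (Benjamini-Hochberg) and called under 0.05. On simulated data for the naive comparison (14381 genes), 48 of 50 genes changed 1.5-fold and 9 of 50 changed 1.25-fold were recovered. The corresponding numbers were 50 and 36 for effector cells (14171 genes), and 44 and 6 for memory cells (14342 genes). Alternatives were other pseudocounts, filters, tools and scalings, a replicate block and leaving out libraries. The members and lists were chosen with earlier results of these data known. Genes named beside the members are, of each list, up to 2 called genes with the smallest adjusted p in each genotype comparison, with their values in the other subsets. In the tables the authors deposited, 3, 2 and 1 members had an adjusted p under 0.05 in naive, effector and memory cells. One marker gene is not reported here and was left out of its list.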

Additional observations from a re-analysis of the deposited data

Results flagged for a closer look

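For 7 genes the genotype effect (cKO minus WT, log2) differed between subsets by an interaction test in limma with all 18 libraries. In effector against naive cells these were Myc (-0.40, adjusted p = 0.039), Nop58 (-0.28, adjusted p = 0.028) and Nop2 (0.39, adjusted p = 0.039), of which none kept its call under every alternative setting. In memory against naive cells they were Nolc1 (0.36, adjusted p = 0.030), Rrp12 (0.35, adjusted p = 0.025), Bop1 (0.42, adjusted p = 0.034), Nop2 (0.54, adjusted p = 0.0060) and Odc1 (-0.42, adjusted p = 8.2e-04). In memory against effector cells Odc1 was called at -0.38 (adjusted p = 0.0045). Both calls of Odc1, and that of Nop2 in memory against naive cells, were kept under each of their 16 alternatives, with adjusted p between 2.5e-04 and 0.043 for Odc1 and between 0.0017 and 0.031 for Nop2. The naive comparison also differed in sex-linked genes, whose part in these differences was not tested.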

How the results depend on the processing

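The calls of Myc (naive, memory), Odc1 (naive, effector) and Gnl3 (effector) were kept under all 15 naive, 14 effector and 14 memory alternatives. Counts of genes called were taken as the same as the main count when the larger was at most 3/2 of the smaller. By that rule 388 of 453 counts were the same. The single genes followed were members where called, Myc, Odc1 and Srm, the genes named beside the members, and Hspa9. Of their 2451 alternative values 2270 kept direction and call, 170 lost and 9 gained a call. Among these, Srm reversed in memory minus effector cells (0.07), to -0.02 and -0.08 without memory WT replicate 3 and cKO replicate 1. Its range was -0.08 to 0.16 when 1 library was left out. Members not called were less steady. Under some alternative 14 of 30 changed sign in naive, 9 of 31 in effector and 11 of 34 in memory cells. Under some alternative 11, 4 and 9 of them were called. The cause of these changes was not tested. Scaled to library totals, naive members were 9 higher and 0 lower, memory members 9 higher, and 7 were lower in cKO memory against naive. These counts stand without the share of all genes called under that scaling. In naive cells without a filter 1 member was lower, and with DESeq2 1. In effector cells 2 were higher without a filter, 2 with DESeq2, and 2 in a fit of all 18 libraries, which called 1519 genes. In memory cells 2 were higher at pseudocount 8 and 5 in the fit of all 18 libraries. With edgeR 0 were higher in effector minus naive. The replicate block gave 0 lower in naive cells, 0 higher and 0 lower in effector minus naive, 1 higher in memory minus naive, and 877 genes called in memory minus effector. Leaving out 1 library at a time gave these ranges. Genes called ran from 2127 to 3301 in naive and 1830 to 3049 in memory cells. Members lower in naive cells ran from 0 to 3, members higher in effector cells from 2 to 5, and members higher and lower in memory cells from 1 to 4 and 0 to 1. In effector minus naive they ran from 0 to 3 higher and 0 to 1 lower, in memory minus naive from 1 to 4 higher and 1 to 2 lower, in memory minus effector from 1 to 2 lower, and in cKO memory against naive from 4 to 7 higher. Replicate numbers did not pair libraries, since same-numbered ones correlated between -0.14 and 0.07. Pairs of other numbers reached 0.23 in memory cells and, for naive WT replicate 2 and cKO replicate 3, 0.20. Without those 2 naive libraries, an alternative chosen after seeing the data, 4201 genes were called in naive cells, with 4 members higher and 7 lower.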
